A study of Mus musculus with 12 samples.

Results

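Bile acid synthesis and transport in the liver was followed through 31 genes, taken by symbol as a fixed list that covers the enzymes of synthesis and conjugation, the sensing and feedback genes, and the uptake and export carriers. All 31 were present among the 22537 gene symbols of the count table (Slc51a and Slc51b are listed there under their older names Osta and Ostb), and 30 had enough counts to be tested among 13968 genes. The exception was Slc51a, with 3 counts in all over the 12 libraries. RNA was measured by poly-A RNA sequencing of whole liver from 12 female C57BL/6 mice, 1 library per mouse, all 6 months old and all fed a high-fat diet for 13 weeks. AHR Flox and ARNT Flox are the control lines, with a floxed Ahr or Arnt gene. AHR KO and ARNT KO have lost, in the liver, the aryl hydrocarbon receptor (AHR) or its dimerization partner ARNT. Each of the 4 groups had 3 mice. Neither the recombinase line nor the deleted exons are named in the sources used here. There was no group on a control diet, so every comparison is between genotypes on the high-fat diet.

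Library totals ran from 23585909 to 33255004 counts. Levels are in CPM, counts divided by a library total that was scaled by the trimmed mean of M values (TMM) and brought to a common size. A gene with 0 counts could still have been present at up to 3 counts, which equals 0.0861 to 0.126 CPM here. Arnt averaged 50.2 ± 2.33 CPM (SD, n = 3) in ARNT Flox and was 25.2, 23.9 and 19.0 CPM in the ARNT KO libraries, a log2 change of -1.15 ± 0.12 (SE; edgeR adjusted p = 0.00601). Ahr was 68.4 ± 12.9 CPM in AHR Flox and 86.5 ± 7.48 CPM in AHR KO (SD, n = 3 each; log2 0.34 ± 0.17, edgeR adjusted p = 0.470), so whole-gene counts did not check the AHR KO label. ARNT KO replicate 3 stood apart from the other 11 libraries: on the first principal component of all tested genes, which held 43.0% of the variance, it lay at 65.3 while the others lay between -30.9 and 30.3. The sum of the cholangiocyte marker list was 335 CPM in it and 65.4 to 137 CPM in the others, with 9 of the 11 listed genes abundant enough to test. The Kupffer cell marker sum was 767 CPM in it and 351 to 564 CPM in the others. Alb, the defining hepatocyte transcript, was 5740 CPM in ARNT KO replicate 3 and 51926 and 53685 CPM in the other ARNT KO libraries, beside 84032 ± 5430 CPM in AHR Flox, 76038 ± 10275 CPM in ARNT Flox and 6311 ± 800 CPM in AHR KO (SD, n = 3 each). The rest of the hepatocyte list did not fall as far as Alb. In ARNT KO replicate 3, Apoa1, Apob, Ttr, Tat, Cps1 and Hnf4a were within the range of the other libraries (Apoa1 at 7820 CPM, the others 6889 to 10751). Fah was below that range (443 CPM, the others 536 to 827). Apoa1, Apob, Ttr, Cps1 and Fah were lower in it than in both other ARNT KO libraries. Tat lay between those libraries and Hnf4a was above both. Ttr was 4864 CPM beside 6955 and 7036 CPM, and Cps1 was 2174 CPM beside 3572 and 3067 CPM. In AHR KO 5 of the 8 estimates were above 0 over 12 libraries. The part of these markers in the results below was not tested. In whole tissue, fewer cells of a type and less RNA per cell cannot be told apart. Each comparison is therefore given for both sets of libraries, all 12 libraries and the 11 without ARNT KO replicate 3.

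Bile acids are made from cholesterol in hepatocytes. The classic route starts with Cyp7a1, the rate-limiting cholesterol 7-alpha-hydroxylase, and the alternative route starts with oxidation of the side chain by Cyp27a1 followed by Cyp7b1. The products are conjugated, exported into bile across the canalicular membrane, reabsorbed in the ileum and taken up again from portal blood. The nuclear receptor FXR (Nr1h4) senses bile acids, induces the repressor SHP (Nr0b2) and the export pump BSEP (Abcb11), and an intestinal hormone acts back on the liver through Fgfr4 and its co-receptor Klb.

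The results on Abcb11, Abcg5 and Abcg8 below turn on genes whose start regions have a describable layout, so 3 windows are printed, from RefSeq on the GRCm38.p6 assembly of the mm10 genome. Each runs from 250 bases before to 50 bases after an annotated start and is written 5′ to 3′ on the strand of the named gene. In the first and the second, capitals mark an inverted repeat, AGGTCA and its reverse complement TGACCT separated by 1 base, which is the arrangement FXR is known to bind, with at most 2 mismatches.
Abcb11, chr2:69342567-69342866, minus strand: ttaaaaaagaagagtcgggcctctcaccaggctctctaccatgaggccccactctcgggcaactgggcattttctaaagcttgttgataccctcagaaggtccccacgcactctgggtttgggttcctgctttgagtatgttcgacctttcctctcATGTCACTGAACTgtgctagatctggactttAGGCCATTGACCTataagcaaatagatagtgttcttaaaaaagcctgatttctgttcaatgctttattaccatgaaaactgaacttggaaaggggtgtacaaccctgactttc
Slco1b2, chr6:141629268-141629567, plus strand: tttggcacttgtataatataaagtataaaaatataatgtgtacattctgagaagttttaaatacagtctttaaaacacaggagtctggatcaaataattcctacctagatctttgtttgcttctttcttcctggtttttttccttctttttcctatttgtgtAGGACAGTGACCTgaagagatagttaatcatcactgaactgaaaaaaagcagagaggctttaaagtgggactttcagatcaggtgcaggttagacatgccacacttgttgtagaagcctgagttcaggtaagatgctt
The third window is that of Abcg5, which lies head to head with Abcg8, and its capitals mark the 109 bases between their start sites.
Abcg5, chr17:84682962-84683261, minus strand: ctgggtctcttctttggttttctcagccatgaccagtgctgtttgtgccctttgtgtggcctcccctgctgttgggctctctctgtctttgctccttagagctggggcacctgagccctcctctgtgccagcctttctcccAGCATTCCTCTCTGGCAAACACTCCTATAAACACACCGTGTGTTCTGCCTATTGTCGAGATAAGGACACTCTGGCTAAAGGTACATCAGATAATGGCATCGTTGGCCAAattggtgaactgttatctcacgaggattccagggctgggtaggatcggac

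The Abcb11 window held the repeat 63 to 51 bases before the start with 1 mismatch and again 94 to 82 bases before it with 2 mismatches. The Slco1b2 window held it 88 to 76 bases before the start with 1 mismatch. Promoter windows were matched for 23 of the 31 genes, 28 windows in all since some genes have several starts, and no window was matched for Cyp7a1, Cyp7b1, Cyp39a1, Amacr, Slc27a5, Baat, Atp8b1 or Abcc3. The repeat with at most 1 mismatch was in 2 of the 28 windows (7.14%) and in 0.0822% of all 32851 windows of the same length in the table. At most 2 mismatches gave the same 2 windows (7.14%) beside 1.14% of all windows. GCGTG, the core bound by AHR with ARNT, was on either strand in 8 of the 28 windows (28.6%) and in 32.4% of all windows, 1 of the 8 being that of Abcb11. ACGTG, the core used by the hypoxia-inducible factors with ARNT, was in 5 (17.9%) and in 19.6% of all windows. The share of windows with either core was thus close to that over all windows, and a match of letters is a description of the window alone. The annotated start of Abcg5 (chr17, position 84683011) and the nearest of the 2 listed starts of Abcg8 (position 84683121) lie so close that their windows share 209 of 300 bases.

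Levels between genes were compared per kilobase of exon, using the union of all annotated exons in GENCODE M21. Scp2, which encodes a peroxisomal thiolase of side-chain shortening and a sterol carrier from the same locus, had the highest mean over the 12 libraries, 560 CPM per kb. It was followed by Slc27a5, the bile acyl-CoA synthetase, at 430 CPM per kb. The sinusoidal uptake carriers Slco1b2 and Slc10a1 came next at 282 and 269 CPM per kb, and their libraries overlapped. Cyp27a1 (186 CPM per kb), Hsd3b7 (154), Baat (122), Akr1d1 (121), Cyp7a1 (112) and Cyp8b1 (87.3) made up the rest of the upper 10. The enzymes of synthesis and conjugation thus held 8 of the 10 highest levels per length, though Cyp7b1 was at 11.5 and Cyp39a1 at 12.1 CPM per kb. The lower end held Klb at 8.12, Atp8b1 at 5.48, Slc10a2 at 2.25, Slc51b at 0.754, Slco1a1 at 0.536 and Slc51a at 0.0027 CPM per kb.

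**Figure D1:**
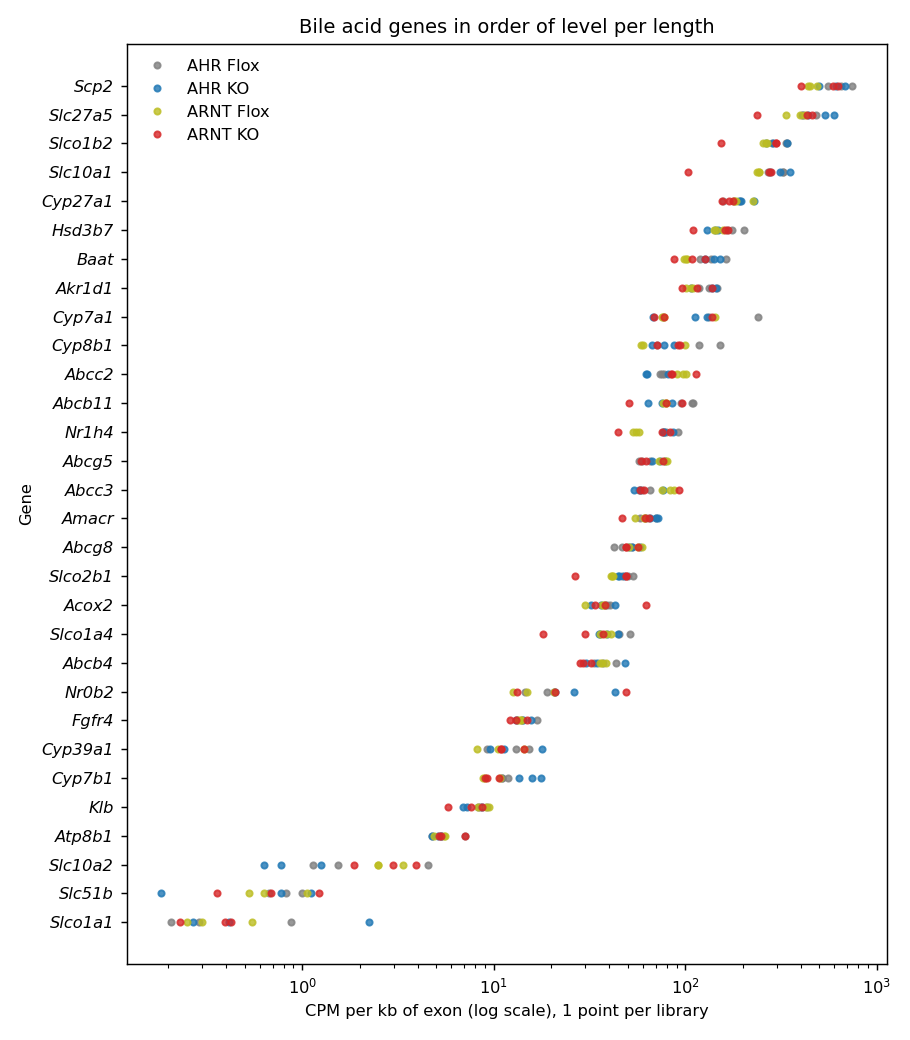
Level of 30 bile acid genes per kilobase of exon (x axis, CPM per kb, log scale), 1 point per library coloured by group, with genes in descending order of their mean over 12 libraries. Scp2 and Slc27a5 are at the top and Slc10a2, Slc51b and Slco1a1 at the bottom, and neighbouring genes overlap over most of the range.

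Within groups the median SD of log2 CPM was 0.25 for the 30 genes and 0.18 for all genes tested when all 12 libraries were used. Over the 11 libraries these medians were 0.16 and 0.15. The highest library was less than 2-fold above the lowest for 15 of the 30 genes over 12 libraries and for 22 over 11. Fgfr4 was the steadiest over 11 libraries, with 1.29-fold between the lowest and the highest, followed by Slco2b1 with 1.30-fold. The widest spreads over 12 libraries were those of Slco1a1 (10.7-fold), Slc10a2 (7.15-fold), Slc51b (6.68-fold), Nr0b2 (3.88-fold) and Cyp7a1 (3.51-fold).

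**Figure D2:**
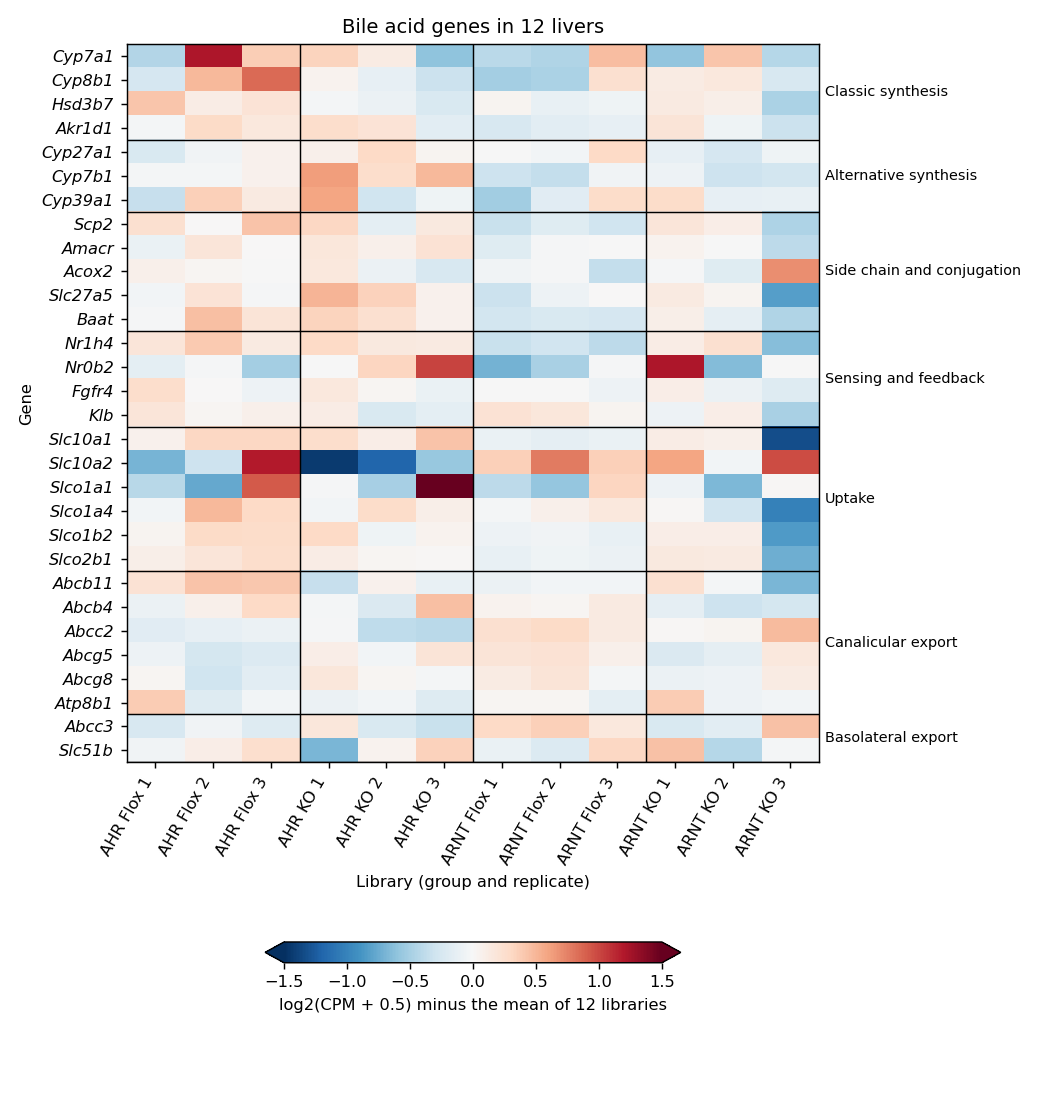
Each gene's log2(CPM + 0.5) in each of the 12 libraries minus its mean over the 12, with blue below and red above that mean, genes grouped by role. The column of ARNT KO replicate 3 is blue for most uptake carriers, and the other columns show single dark cells for Cyp7a1, Nr0b2, Slc10a2 and Slco1a1.

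In AHR KO against AHR Flox, edgeR's quasi-likelihood test of 12 libraries called 0 of 30 bile acid genes at an adjusted p under 0.05, beside 0.0788% of all genes tested. At an unadjusted p under 0.05 there were 5 of 30 (16.7%), beside 11.9% of all genes. DESeq2 called 1 of 30, Cyp7b1, beside 359 of the 13968 genes tested. The groups did not overlap for 5 genes (Abcb11, Abcg5, Cyp7b1, Hsd3b7 and Nr0b2), where 21.2% of all genes had groups that did not overlap. The median log2 change over the 30 was -0.05 and over all genes 0.01. Without ARNT KO replicate 3 the count was again 0, beside 0.966% of all genes, with 5 (16.7%) at an unadjusted p under 0.05, beside 16.8% of all genes.

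For ARNT KO against ARNT Flox the 12-library fit called 0 of 30, beside 0.0573% of all genes, and 0 by DESeq2. At an unadjusted p under 0.05 there were 0, beside 5.88% of all genes. The groups did not overlap for Cyp27a1 and Abcb4, beside 10.8% of all genes. Without ARNT KO replicate 3, 1 gene, Nr1h4, was called and higher in ARNT KO, beside 1.37% of all genes called. At an unadjusted p under 0.05 there were 5 (16.7%), close to the 16.4% of all genes. The groups then did not overlap for 17 of 30, beside 37.6% of all genes, a share that 2 libraries against 3 reach more easily. The median log2 change over the 30 was -0.03 with all libraries and 0.12 without this one.

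The test of the difference between both effects (the ARNT change minus the AHR change) called 0 of 30 over 12 libraries, beside 0.0430% of all genes, and 0 by DESeq2, with 4 (13.3%) at an unadjusted p under 0.05, beside 9.51% of all genes. Without ARNT KO replicate 3 it called 1, Abcg5, beside 1.38% of all genes, with 11 (36.7%) at an unadjusted p under 0.05, beside 17.2% of all genes.

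Between the control lines 8 of the 30 genes were called once ARNT KO replicate 3 was left out, beside 0 in AHR KO and 1 in ARNT KO. That replicate is in neither control group and enters this comparison through the scaling, the filter and the shared estimate of the spread. In ARNT Flox against AHR Flox the 12-library fit called 0 of 30, beside 0.329% of all genes, and 0 by DESeq2, with 8 (26.7%) at an unadjusted p under 0.05, beside 19.9% of all genes. Without the replicate 10.9% of all genes were called, and among the 8 bile acid genes Abcc3 and Abcg5 were higher in ARNT Flox, and Abcb11, Baat, Nr1h4, Scp2, Slc10a1 and Slco2b1 were lower. A fit of the 2 control groups alone called 8, of which 7 were shared, beside 1615 genes called over all. It used the same control libraries, so it is not a separate test. The groups did not overlap for 14 of 30, beside 35.8% of all genes, and 23 of 30 estimates were below 0, with a median of -0.18 beside -0.00 for all genes. The Kupffer cell marker sum was 351 to 531 CPM in AHR Flox and 547 to 564 CPM in ARNT Flox, and 4 of its 8 genes were called higher in ARNT Flox over 11 libraries. The cholangiocyte sum was at most 88.7 CPM in AHR Flox and 87.9 to 137 CPM in ARNT Flox, and of 8 hepatocyte markers none was called in this fit although 7 had estimates below 0. The stellate sum was 254 to 324 CPM in AHR Flox and 346 to 417 CPM in ARNT Flox, the lymphocyte sum 3.93 to 5.01 and 5.45 to 7.36 CPM, and the endothelial sum 274 to 325 and 324 to 384 CPM, with 6 of 7, 5 of 5 and 7 of 7 estimates above 0 and 0, 1 and 0 called higher. Their part was not tested. Each control line is also the reference of a knockout, so the comparisons share libraries and the values below are given side by side.

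**Figure D3:**
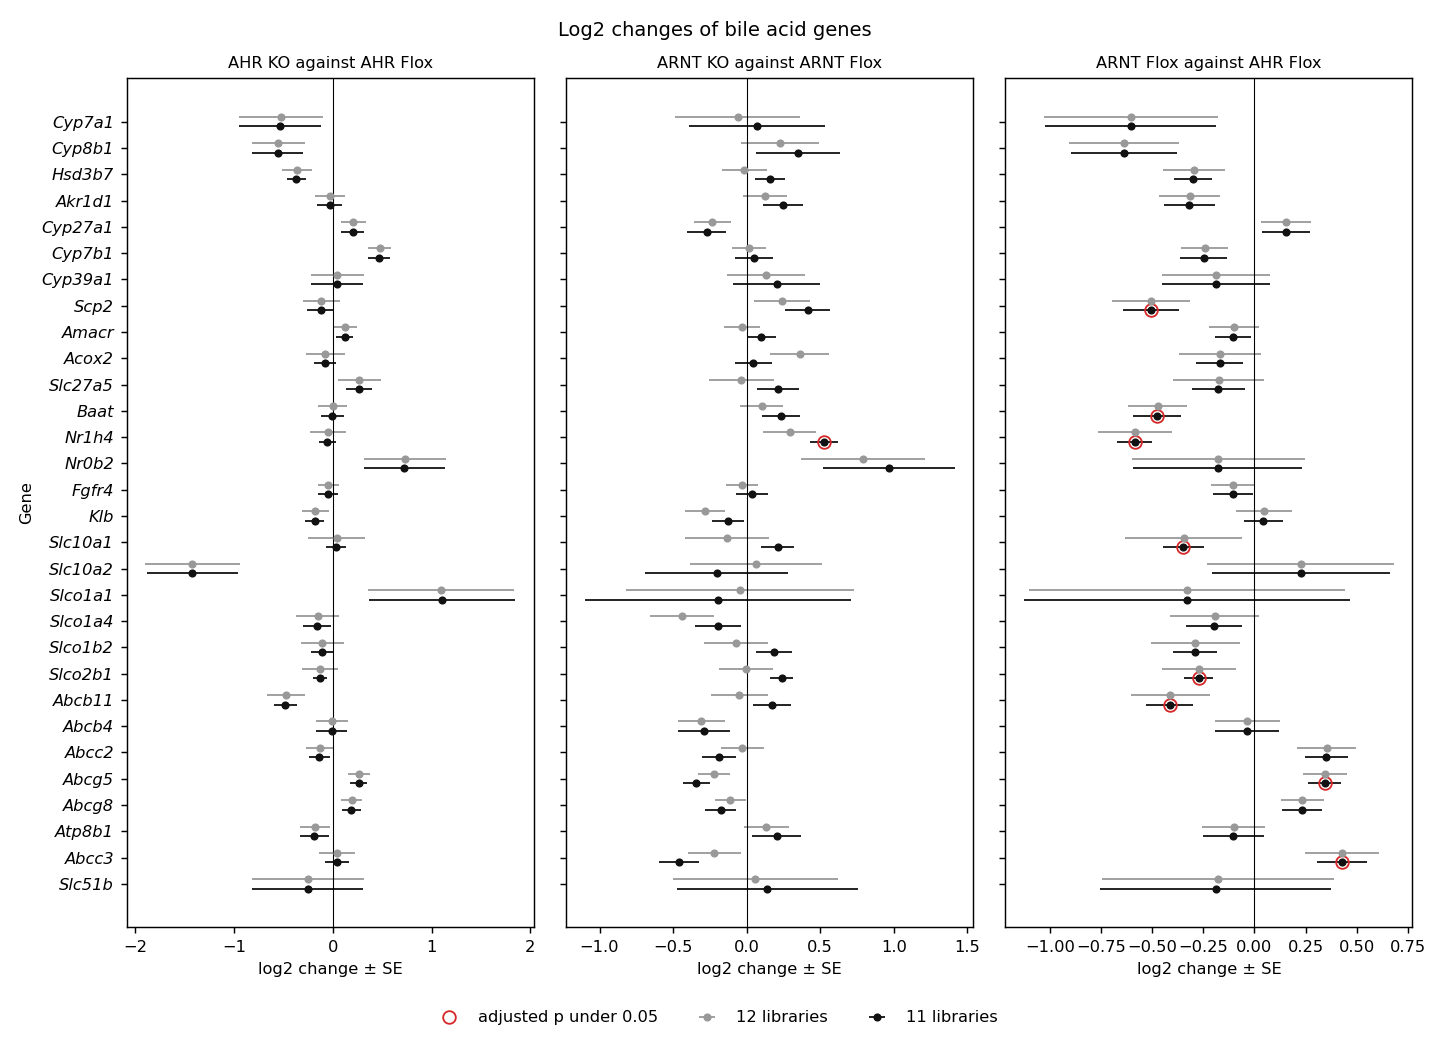
Log2 change with its standard error (x axis, a different range in each panel) of 30 bile acid genes in 3 comparisons, grey for the fit of 12 libraries and black for the fit of 11 without ARNT KO replicate 3. Red circles mark adjusted p under 0.05: none in AHR KO, Nr1h4 in ARNT KO and 8 genes between the control lines, all in the fit of 11 libraries.

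Among the enzymes of the classic route, Cyp7a1 (chr4:6265612-6275633) was the most variable. It stood at 319, 997 and 558 CPM in AHR Flox, 544, 470 and 284 CPM in AHR KO, 325, 314 and 594 CPM in ARNT Flox, and 285, 576 and 321 CPM in ARNT KO. The groups overlapped throughout, and the single highest library was AHR Flox replicate 2. The log2 change was -0.53 ± 0.42 (SE) in AHR KO and -0.06 ± 0.42 in ARNT KO (edgeR adjusted p = 0.683 and 1.000), errors that leave room for a change of either sign. Cyp8b1, the sterol 12-alpha-hydroxylase that directs synthesis to cholic acid, was at 138, 230 and 295 CPM in AHR Flox, 171, 151 and 131 CPM in AHR KO, 115, 118 and 194 CPM in ARNT Flox, and 178, 183 and 139 CPM in ARNT KO. Its groups overlapped too, with log2 changes of -0.55 ± 0.27 in AHR KO and 0.23 ± 0.27 in ARNT KO (edgeR adjusted p = 0.445 and 0.995).

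The levels of Cyp7a1 and Cyp8b1 were correlated over these 12 livers, in a pair chosen after the values had been seen. Over the 12 libraries, log2 CPM gave Pearson's r = 0.730 (permutation p = 0.00643, adjusted over 3 relations 0.0193) and Spearman's rho = 0.720 (permutation p = 0.0115, adjusted 0.0345). Without the 2 libraries farthest from the median of Cyp7a1 (AHR Flox replicate 2 and ARNT Flox replicate 3) r was 0.668 (permutation p = 0.0221), without ARNT KO replicate 3 it was 0.719, and for deviations from group means it was 0.714, a description with no test. Nr0b2, the repressor SHP, gave no relation that passed its test: r was -0.319 with Cyp7a1 (permutation p = 0.308, rho = -0.385) and -0.0509 with Cyp8b1 (permutation p = 0.876, rho = 0.0350). The libraries with the highest Nr0b2, ARNT KO replicate 1 at 55.6 CPM and AHR KO replicate 3 at 48.6 CPM, had the lowest Cyp7a1, at 285 and 284 CPM. Without those 2 libraries r between Nr0b2 and Cyp7a1 was 0.229, and between Nr0b2 and Cyp8b1 0.0692. All 3 relations were chosen in this way, and the p-values, adjusted over the 3 alone, do not cover that choice among 30 genes.

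**Figure D4:**
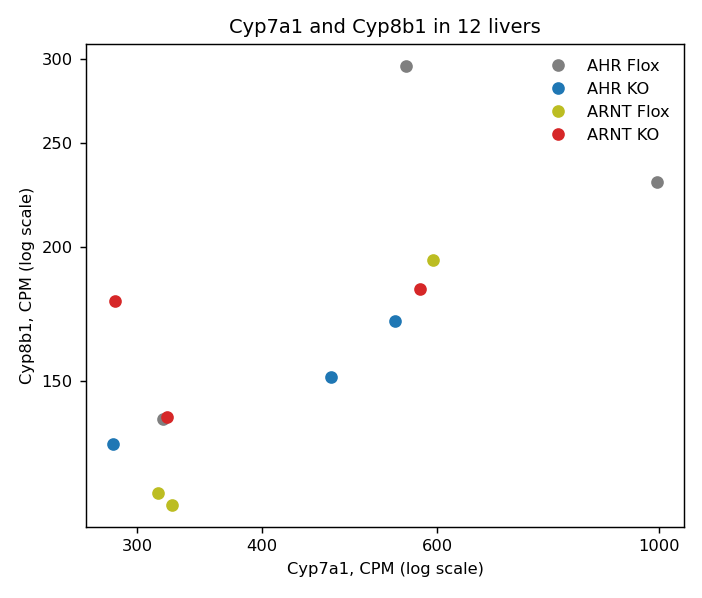
Cyp8b1 against Cyp7a1 (both CPM, log scales), 1 point per library coloured by group. The points rise together (r = 0.730 over 12 libraries), with AHR Flox replicates 2 and 3 at the upper right and members of every group in the lower left.

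Hsd3b7, which oxidizes the 3-beta-hydroxyl group (chr7:127800604-127803802), was at 562, 457 and 486 CPM in AHR Flox and at 412, 397 and 360 CPM in AHR KO. All 3 AHR KO libraries were below all 3 AHR Flox libraries, with a log2 change of -0.36 ± 0.15 (SE) that did not pass the test (edgeR adjusted p = 0.373, and 0.0810 over 11 libraries). It was 433, 390 and 401 CPM in ARNT Flox and 463, 446 and 302 CPM in ARNT KO. AHR Flox was thus also above every ARNT Flox library, while ARNT KO replicate 1 was above AHR Flox replicate 2. Exons of Hsd3b7 overlap those of other annotated genes, and the strand setting of the counting is not given. Akr1d1, the 5-beta-reductase, ran from 277 to 423 CPM over the 12 libraries, with changes of -0.03 ± 0.15 in AHR KO and 0.12 ± 0.15 in ARNT KO.

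In the alternative route, Cyp7b1, the oxysterol 7-alpha-hydroxylase (chr3:18071950-18243338), had the smallest p of these 30 genes in AHR KO over 12 libraries, while over 11 libraries that of Abcb11 was smaller. The levels of Cyp7b1 follow. It was at 23.9, 23.8 and 25.6 CPM in AHR Flox and at 38.0, 29.4 and 34.3 CPM in AHR KO. Every AHR KO library was above every AHR Flox library. The log2 change of 0.47 ± 0.11 (SE) did not pass edgeR's test (adjusted p = 0.131, and 0.0731 over 11 libraries). DESeq2 called it (adjusted p = 0.0182) as 1 of 359 genes over all. Over 22 alternatives the adjusted p ran from 0.0182 to 0.429. In the ARNT pair it stood at 19.5, 18.9 and 23.5 CPM in ARNT Flox and 23.1, 19.5 and 20.0 CPM in ARNT KO, which overlap (log2 0.02 ± 0.12). The difference between both effects was -0.46 ± 0.16 (edgeR adjusted p = 0.408), so a difference between the knockout effects was not shown. Cyp27a1, the sterol 27-hydroxylase, was at 399, 390 and 493 CPM in ARNT Flox and lower in all 3 ARNT KO libraries, at 369, 338 and 385 CPM, and the log2 change of -0.23 ± 0.12 did not pass (edgeR adjusted p = 0.868, and 0.335 over 11 libraries). Cyp39a1, the 24-hydroxycholesterol 7-alpha-hydroxylase, ran from 25.0 to 54.4 CPM with overlapping groups.

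Of the side-chain and conjugation enzymes, Scp2 and Baat were lower in ARNT Flox than in AHR Flox over 11 libraries. Baat, the enzyme that joins bile acids to taurine or glycine (chr4:49489422-49506557), was at 230, 318 and 266 CPM in AHR Flox, 294, 274 and 244 CPM in AHR KO, 192, 199 and 196 CPM in ARNT Flox, and 247, 211 and 170 CPM in ARNT KO. The ARNT Flox libraries were close together and all below the AHR Flox and AHR KO libraries (log2 -0.47 ± 0.15 against AHR Flox, edgeR adjusted p = 0.149 over 12 libraries; -0.48 ± 0.12, 0.0284 over 11). Scp2 (chr4:108043839-108144998) was at 2256, 1928 and 2578 CPM in AHR Flox, 2376, 1732 and 2127 CPM in AHR KO, 1522, 1692 and 1553 CPM in ARNT Flox, and 2176, 2052 and 1393 CPM in ARNT KO. Again every ARNT Flox library was below every library of the AHR pair, with a change against AHR Flox of -0.50 ± 0.19 (edgeR adjusted p = 0.194 over 12 libraries) and -0.51 ± 0.14 (0.0391 over 11).

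Acox2, the branched-chain acyl-CoA oxidase, shows how 1 library can set a group mean. It was at 136, 140 and 111 CPM in ARNT Flox and 141, 125 and 231 CPM in ARNT KO, the last being replicate 3, and at 149, 144 and 141 CPM in AHR Flox and 159, 134 and 120 CPM in AHR KO. The ARNT log2 change was 0.36 ± 0.20 with that library and 0.05 ± 0.13 without it (edgeR adjusted p = 0.881 and 0.900). Amacr, the racemase of the side chain, ran from 122 to 188 CPM, and Slc27a5 ran from 575 to 1456 CPM, with ARNT KO replicate 3 lowest for both.

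Among the sensing genes, Nr1h4 was the member called in a knockout comparison. It encodes FXR (chr10:89454234-89533585) and was at 183, 212 and 177 CPM in AHR Flox, 198, 178 and 176 CPM in AHR KO, 128, 131 and 123 CPM in ARNT Flox, and 174, 191 and 103 CPM in ARNT KO. ARNT Flox was the low group, below all libraries of the AHR pair and below ARNT KO replicates 1 and 2, while ARNT KO replicate 3 was the lowest of the 12. Over 11 libraries Nr1h4 was higher in ARNT KO than in ARNT Flox by 0.52 ± 0.09 on the log2 scale (SE; edgeR adjusted p = 0.0225) and lower in ARNT Flox than in AHR Flox by a log2 change of -0.59 ± 0.09 (adjusted p = 0.00277). With replicate 3 these values were 0.29 ± 0.18 (edgeR adjusted p = 0.911) and -0.58 ± 0.18 (0.149). Both comparisons share ARNT Flox. The ARNT KO rise was called in 2 of 22 alternatives, with adjusted p from 0.0221 to 1.000, and the difference from the AHR effect was 0.58 ± 0.13 (edgeR adjusted p = 0.0527 over 11 libraries). In AHR KO the change was -0.06 ± 0.08 over 11 libraries (edgeR adjusted p = 0.783).

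Nr0b2, which FXR induces, was at 21.5, 23.4 and 16.5 CPM in AHR Flox and 23.7, 29.7 and 48.6 CPM in AHR KO. The groups did not overlap, though by a narrow margin, and the log2 change of 0.73 ± 0.42 did not pass (edgeR adjusted p = 0.532). It was at 14.3, 16.8 and 23.4 CPM in ARNT Flox and 55.6, 14.9 and 23.6 CPM in ARNT KO, so a single ARNT KO library was high (0.79 ± 0.42, edgeR adjusted p = 0.862). Klb, the co-receptor of the intestinal hormone, was at 41.8, 37.5 and 38.6 CPM in AHR Flox, 39.6, 31.3 and 33.1 CPM in AHR KO, 42.8, 41.2 and 37.6 CPM in ARNT Flox, and 34.7, 39.3 and 26.1 CPM in ARNT KO. The groups of both pairs overlapped (log2 -0.18 ± 0.14 in AHR KO and -0.28 ± 0.14 in ARNT KO, edgeR adjusted p = 0.664 and 0.843). Fgfr4, the receptor itself, lay between 43.3 and 59.9 CPM in all 12 libraries.

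The uptake carriers include Slc10a1 (NTCP, chr12:80953183-80968705), the sodium-dependent carrier of conjugated bile acids at the sinusoidal membrane. It was at 595, 708 and 710 CPM in AHR Flox, 685, 611 and 770 CPM in AHR KO, 531, 521 and 532 CPM in ARNT Flox, and 617, 603 and 226 CPM in ARNT KO. The ARNT Flox libraries agreed closely and were below the AHR pair, and ARNT KO replicate 3 was far below every other library. Against AHR Flox, ARNT Flox was at -0.35 ± 0.29 over 12 libraries and -0.35 ± 0.10 over 11 (edgeR adjusted p = 0.514 and 0.0498), so the estimate stayed and its error changed. Slco2b1, an organic anion carrier, was at 280, 300 and 317 CPM in AHR Flox, 286, 269 and 267 CPM in AHR KO, 244, 251 and 248 CPM in ARNT Flox, and 292, 291 and 159 CPM in ARNT KO. It had the same layout, with a change of -0.27 ± 0.07 between the control lines over 11 libraries (edgeR adjusted p = 0.0340) and -0.27 ± 0.18 over 12 (0.423). Its exons overlap those of annotated genes Gm15635 and Gm34280 on the other strand.

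Slc10a2, the sodium-dependent carrier known from ileum and cholangiocytes, was at 4.73, 6.36 and 18.8 CPM in AHR Flox and 2.64, 3.24 and 5.20 CPM in AHR KO. The groups overlapped and AHR Flox replicate 3 was high, so the log2 change of -1.42 ± 0.48 (edgeR adjusted p = 0.261) became -0.59 without that library (adjusted p = 0.743). Over 22 alternatives the log2 change ran from -1.77 to -0.59 and the adjusted p from 0.0527 to 0.743. It was at 10.4, 14.0 and 10.3 CPM in ARNT Flox and 12.3, 7.75 and 16.2 CPM in ARNT KO. The cholangiocyte marker sum was at most 88.7 CPM in the 3 AHR Flox libraries and lay between 69.1 and 81.8 CPM in AHR KO. Of the organic anion carriers, Slco1b2 ran from 760 to 1675 CPM and Slco1a4 from 117 to 331 CPM, both lowest in ARNT KO replicate 3. Slco1a1, a carrier known to be male-biased in mouse liver, ran from 1.09 to 11.7 CPM, highest in AHR KO replicate 3. Whether reads were shared between Slco1a1 and the related Slco1a4 was not tested.

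For export into bile, Abcb11 (BSEP, chr2:69238282-69342616), the bile salt pump whose promoter is printed above, was at 488, 564 and 556 CPM in AHR Flox, 329, 438 and 389 CPM in AHR KO, 394, 407 and 408 CPM in ARNT Flox, and 496, 410 and 261 CPM in ARNT KO. AHR Flox had the highest group mean and was above every AHR KO and every ARNT Flox library, while ARNT KO replicate 1 was above AHR Flox replicate 1. Over 11 libraries Abcb11 was lower in ARNT Flox than in AHR Flox by a log2 change of -0.41 ± 0.11 (edgeR adjusted p = 0.0426), and the AHR KO change of -0.48 ± 0.11 did not pass (0.0693). Over 12 libraries these were -0.41 ± 0.19 (edgeR adjusted p = 0.262) and -0.48 ± 0.19 (0.357). Both use AHR Flox as the reference. Exons of Abcb11 overlap those of annotated genes Gm13613 and Gm13614.

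Abcg5, 1 of the 2 subunits of the canalicular sterol transporter (chr17:84658234-84683011), was the gene whose changes in the 2 knockouts differed over 11 libraries. It was at 176, 156 and 162 CPM in AHR Flox, 200, 181 and 212 CPM in AHR KO, 213, 217 and 197 CPM in ARNT Flox, and 160, 169 and 208 CPM in ARNT KO. AHR KO was above AHR Flox in all libraries, while ARNT KO replicates 1 and 2 were below ARNT Flox and replicate 3 was within its range. The ARNT change minus the AHR change was -0.60 ± 0.12 over 11 libraries (edgeR adjusted p = 0.0440) and -0.49 ± 0.15 over 12 (0.347). Neither effect passed alone: 0.26 ± 0.08 in AHR KO and -0.34 ± 0.09 in ARNT KO over 11 libraries (edgeR adjusted p = 0.148 and 0.103). The control lines differed by 0.34 ± 0.08 over 11 libraries (edgeR adjusted p = 0.0268). Its partner Abcg8, which starts 109 bases away on the other strand, was at 199, 158 and 174 CPM in AHR Flox, 218, 198 and 191 CPM in AHR KO, 212, 222 and 191 CPM in ARNT Flox, and 183, 184 and 211 CPM in ARNT KO. Its estimates had the same signs, 0.19 ± 0.10 and -0.18 ± 0.11 over 11 libraries, with a difference of -0.36 ± 0.14 that did not pass (edgeR adjusted p = 0.236). Exons of Abcg5 and Abcg8 overlap on opposite strands, so their counts may share reads.

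Abcc2 (MRP2), which exports conjugates, was at 626, 646 and 660 CPM in AHR Flox and higher in all 3 ARNT Flox libraries, at 832, 861 and 774 CPM, a log2 change of 0.35 ± 0.11 over 11 libraries that did not pass (edgeR adjusted p = 0.0550). In AHR KO it was at 695, 540 and 532 CPM and in ARNT KO at 714, 726 and 976 CPM. Abcb4 (MDR2), the phospholipid exporter, was at 343, 336 and 362 CPM in ARNT Flox and 301, 266 and 275 CPM in ARNT KO, which did not overlap (log2 -0.31 ± 0.16, edgeR adjusted p = 0.861). Atp8b1, a phospholipid flippase of the canalicular membrane, ran from 31.9 to 47.7 CPM.

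**Figure D5:**
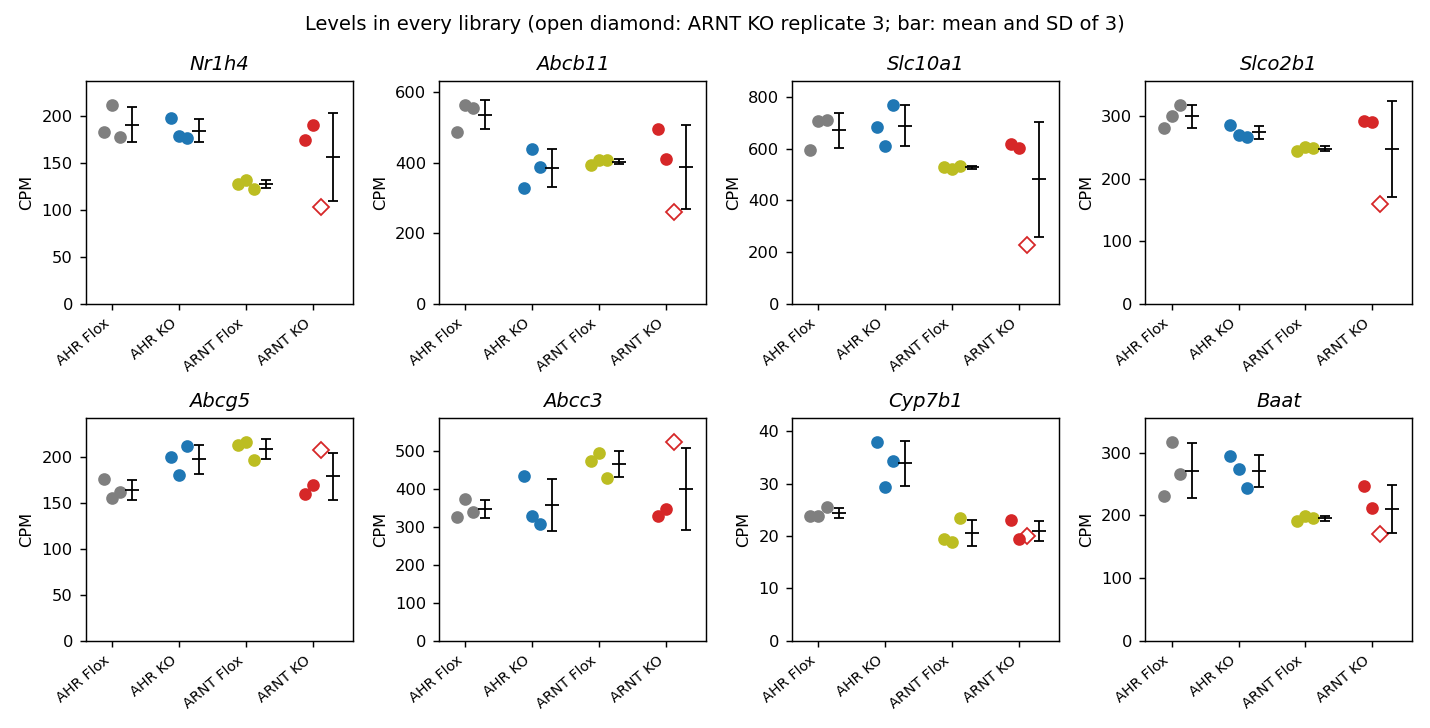
CPM in every library (points, coloured by group, open diamond for ARNT KO replicate 3) with the mean and SD of 3 libraries beside them, for 8 genes with axes starting at 0. By group mean, ARNT Flox is lowest for Nr1h4 and Baat and AHR Flox is highest for Abcb11. The diamond lies far below the other ARNT KO points for Nr1h4, Abcb11, Slc10a1 and Slco2b1 and above them for Abcg5 and Abcc3.

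Export back to blood runs through Abcc3 (MRP3) and the SLC51 heterodimer. Abcc3 (chr11:94343295-94392997) was at 327, 373 and 339 CPM in AHR Flox, 436, 329 and 307 CPM in AHR KO, 474, 495 and 430 CPM in ARNT Flox, and 329, 347 and 525 CPM in ARNT KO. ARNT Flox was above AHR Flox in every library, by 0.43 ± 0.12 on the log2 scale over 11 libraries (edgeR adjusted p = 0.0481) and 0.43 ± 0.18 over 12 (0.226). ARNT KO replicates 1 and 2 were below ARNT Flox and replicate 3 above it, and the ARNT change over 11 libraries, -0.46 ± 0.14, did not pass (edgeR adjusted p = 0.134). Slc51b had 4 to 28 counts per library, 0.130 to 0.869 CPM, with overlapping groups. Its exons overlap those of Rasl12, and those of Slc51a overlap those of Pcyt1a, on the other strand. Slc51a had 1 count in AHR Flox replicate 3, 2 in ARNT KO replicate 1 and 0 in the other 10 libraries. Both are known from ileal enterocytes and cholangiocytes, and of the 8 enterocyte markers Sis, Alpi and Cdx2 were at 0 in all 12 libraries, while Fabp2, Lgals4 and Vil1 were detected at means of 122, 4.11 and 0.403 CPM and the list summed to 95.5 to 205 CPM.

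ARNT KO replicate 3 was the lowest of the 12 libraries for 14 of the 30 tested genes, the highest for 3 (Abcc3, Acox2 and Abcc2) and within the range of the others for 13. Of all tested genes it was the lowest for 21.5% and the highest for 23.4%. Its median log2 difference from the mean of replicates 1 and 2 was -0.39 over the 30 genes and -0.00 over all genes. The lowest differences were those of Slc10a1 (-1.43), Slco1b2 (-0.95), Slc27a5 (-0.92), Slco1a4 (-0.88), Slco2b1 (-0.87), Nr1h4 (-0.82) and Abcb11 (-0.79). Of the other uptake carriers, Slc10a2 and Slco1a1 were higher in it, by 0.67 and 0.35, and the highest were Acox2 at 0.80, Slc10a2 and Abcc3 at 0.64. These are differences between 3 livers of 1 genotype and carry no test.

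Beyond the 31 genes, 43 other genes of synthesis, regulation and transport were in the table and 39 were tested (1 of them, Hnf4a, is also in the hepatocyte marker list). Over 12 libraries 0 of them were called by edgeR in any of the 4 comparisons, with 4, 0, 3 and 7 (10.3%, 0%, 7.69% and 17.9%) at an unadjusted p under 0.05 in AHR KO, ARNT KO, the difference and the control lines, below the 11.9%, 5.88%, 9.51% and 19.9% of all genes. Over 11 libraries 1 rose in AHR KO, 1 fell in ARNT KO, 1 had a lower difference, and between the control lines 1 was higher and 4 were lower in ARNT Flox. Of all genes 0.966%, 1.37%, 1.38% and 10.9% were called in these fits, so the 5 of 39 between the control lines are near the background. Abcc4 (MRP4), a basolateral exporter, was the gene called in all of these comparisons. It was at 4.97, 8.34 and 4.76 CPM in AHR Flox, 15.7, 17.1 and 11.9 CPM in AHR KO, 27.9, 35.6 and 30.5 CPM in ARNT Flox, and 12.3, 13.9 and 106 CPM in ARNT KO. The 4 groups did not overlap within either pair apart from ARNT KO replicate 3, which had the highest Abcc4 of the 12. Over 11 libraries the log2 changes were 1.30 in AHR KO, -1.25 in ARNT KO, -2.55 for the difference and 2.37 for ARNT Flox against AHR Flox (edgeR adjusted p = 0.0243, 0.0216, 0.00406 and 0.000121). With replicate 3 the ARNT KO estimate was 0.50 and did not pass. The 4 genes lower in ARNT Flox were Nr1h3, the oxysterol receptor LXR-alpha (-0.31), Abcc6 (-0.39), Slc10a5 (-0.48) and Slc22a7, an organic anion carrier (-1.24), with edgeR adjusted p of 0.0123, 0.0108, 0.0154 and 0.0334.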

How the data were processed

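The deposited values are counts of reads per gene, not normalized, for 22537 symbols in 12 libraries, all of which were used. Per the submitters' processing notes the build was mm10 and the tools were STAR (2.5.4b, 2.6.0c), bcl2fastq 2.20, DESeq2 1.20.0 and R 3.5.1. The counter, its strand setting and its annotation are not named in the sources used here. The labels do not say whether mice shared litters or cages, so p-values measure the spread between these libraries. The genes, lists and the fit without ARNT KO replicate 3 were chosen with earlier results of these data known.

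Counts were fitted with edgeR 4.0.16 in R 4.3.3: all 12 libraries in 1 fit with a mean per group, TMM scaling, filterByExpr (minimum count 10, minimum total 15; 13968 genes with 99.98% of reads kept, 14073 without ARNT KO replicate 3), a two-sided quasi-likelihood F test and Benjamini-Hochberg adjustment over all genes tested, called at an adjusted p under 0.05. The biological coefficient of variation was 17.5%. Libraries of a group differed by 16.6 to 237 times the sampling noise (chi-square per degree of freedom), so none were duplicates. The limit of 3 counts reflects counting error alone, as the reads carry no molecular identifiers.

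Genes were described library by library where called in any comparison in either fit, or where they had the smallest p of their role over both knockout comparisons; values of other genes were added for roles and figures after they were seen. Same-numbered AHR Flox and ARNT Flox libraries had correlated deviations (0.327, 0.153 and 0.101), and for no other pair of groups were all 3 above 0.1. Of the unlike-numbered libraries, AHR Flox replicate 2 with ARNT Flox replicate 3 gave 0.138, above the lowest of these, and the rest were below 0. Deviations from a group mean sum to 0, so same-numbered values above 0 push the unlike-numbered ones below 0. The latter are thus no separate sign of pairing. The labels give no pairing, and the closing section gives the fit with the replicate number as a block. Alternatives were DESeq2 1.42.0, limma-voom (limma 3.58.1) with and without sample quality weights (the former added after seeing the data), other scalings and filters, fits of the contrast's own groups, and each library left out. Permutation tests used SciPy 1.17.1 in Python 3.11.15 with 100000 resamples, two-sided. On data simulated for AHR KO against AHR Flox (13968 genes, 200 changed), the edgeR fit called 75% of the genes changed 2-fold and 98% of those changed 4-fold, with 11 false calls. The simulated libraries shared 1 mean per gene apart from these changes, so no library stood apart as ARNT KO replicate 3 does. In the fit of the measured 12 libraries, Alb was not called in AHR KO although its log2 change was -3.74. A count of 0 called in that fit therefore does not exclude changes of 4-fold or more. Changes below 2-fold were not simulated, so these shares do not apply to the smaller changes of most bile acid genes. Positions and exon lengths come from GENCODE M21, promoters from RefSeq (GRCm38.p6).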

Additional observations from a re-analysis of the deposited data

Results flagged for a closer look

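Without ARNT KO replicate 3, Abcg5 was called in the test of the difference between the knockout effects, beside 1.38% of all genes. The ARNT change minus the AHR change was then -0.60 on the log2 scale (edgeR adjusted p = 0.0440). Over 12 libraries it was -0.49 and was not called. All 3 AHR KO libraries were above AHR Flox, and the other 2 ARNT KO libraries were below ARNT Flox. The difference was called in 2 of 21 alternatives, with adjusted p from 0.0331 to 0.656. Without ARNT KO replicate 3 neither knockout effect on Abcg5 passed alone, and Abcg5 also differed between the control lines. Groups of 3 libraries were not tested for single outlying samples.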

How the results depend on the processing

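The count of bile acid genes called was 0 in each of the 4 comparisons over 12 libraries and did not move in 79 alternatives. It moved in 8. DESeq2 called 1 in AHR KO. Limma-voom with quality weights called 2 in ARNT KO, 1 for the difference and 8 between the control lines, and a fit of the control groups alone called 8 there. Leaving out 1 library at a time gave 0 to 0 in AHR KO, 0 to 1 in ARNT KO, 0 to 1 for the difference and 0 to 8 between the control lines, and the values above 0 were those without ARNT KO replicate 3. With the replicate number as a block the count stayed at 0 in each comparison, while the count over all genes went from 8 to 3 in ARNT KO and from 46 to 23 between the control lines. The counts over all genes (11, 8, 6 and 46) were 359, 56, 148 and 572 by DESeq2, 82, 422, 238 and 2395 with quality weights, and with 1 library left out 5 to 136, 1 to 193, 1 to 194 and 12 to 1532. With no filter and with a filter at 1 CPM, 28 and 19 genes were called in AHR KO; limma-voom called 5 in ARNT KO, and fits of a comparison's own groups called 1 in ARNT KO and 1615 between the control lines. The median of the 30 genes became 0.12 in ARNT KO without ARNT KO replicate 3 and -0.08 for the difference without ARNT KO replicate 1. The Abcc4 change in ARNT KO, 0.50 over 12 libraries, reversed to -1.12 with quality weights and to -1.25 without ARNT KO replicate 3, and ran from -1.25 to 0.94 with 1 library left out. No scaling moved the median of all genes by over 0.1. The causes of these shifts were not tested. The difference was not refitted on a comparison's own groups, since it uses all 4.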
